A study of Drosophila melanogaster with 19 samples.

Results

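The transcriptome of Drosophila S2R+ cells depleted of mip40 was compared with that of control cells. The comparison rested on 4 libraries, 2 from cells given double-stranded RNA (dsRNA) against mip40 and 2 from cells given dsRNA against GFP, a jellyfish gene that fly cells lack. All 15021 genes of the expression table were included, each as the sum of the FPKM of its known transcripts, new isoforms and overlapping transcripts. FPKM count sequenced fragments per length of transcript and per number of fragments mapped in the library. Of these genes, 7835 reached an FPKM of 1 in at least 2 of the 9 RNA libraries and were tested, and 7186 did not.

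S2R+ is a line of embryonic origin with properties of blood cells. Every group, the control included, received dsRNA anew at the start of each of 4 days, at 30 µg/ml for 30 min in medium without serum and then at 10 µg/ml in medium with 10% serum, at 25 °C. Polyadenylated RNA was sequenced as read pairs of 100 bp. Cells given dsRNA against mip120 (2 libraries), mip130 (2 libraries) or E2F2 (1 library) entered the same model and are described where mip40 RNAi is set against them. Nothing in the labels places replicates in separate cultures, so the tests hold for the spread among these libraries alone, and that spread may be technical.

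mip40 is the fly relative of human LIN37, a subunit of the MuvB core that it forms with mip120, mip130, lin-52 and Caf1. With E2F2, Dp, a retinoblastoma-family protein and Myb the core makes up dREAM, an assembly on chromatin that keeps genes of the germline and of other cell types off in somatic cells. The same assembly, through Myb and other partners, takes part in the expression of genes for the cell cycle.

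The mip40 transcript (chromosome 2R, start 15179708 in the table, whose genome build no source used here gives) stood at 1.45 and 1.12 FPKM in mip40 RNAi, against 34.0 and 31.1 FPKM in GFP cells. Both RNAi libraries lay far under both control libraries (log2 change -3.88 ± 0.10 SE, limma adjusted p = 6.4e-06). Its tested neighbours did not pass the test. FK506-bp2, a peptidyl-prolyl isomerase gene, had 888 and 819 FPKM in mip40 RNAi, against 781 and 755 FPKM in GFP cells (log2 change 0.15). Tab2, which encodes an adaptor of immune signalling and starts close by at position 15180034, had 45.7 and 46.9 FPKM in mip40 RNAi, against 50.1 and 42.6 FPKM in GFP cells (0.00). CG11906 and CG7461 changed by -0.14 and -0.09 on the log2 scale.

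Annotated genes summed to 672820 and 620601 FPKM in the mip40 RNAi libraries, against 607610 and 608207 FPKM in the GFP libraries. FPKM hold no counts, so absolute depth is unknown. The smallest steps among low values gave depths relative to GFP replicate 2 of 0.677 and 0.806 for the mip40 RNAi libraries, against 0.915 for GFP replicate 1. A single transcript of no annotated gene took 4.29% and 5.13% of the FPKM in mip40 RNAi, against 12.8% and 3.67% in GFP cells. Replicates differed by a median of 0.11 on the log2 scale in either group. Of 15 hemocyte markers, 14 were matched by symbol, and 10 of these reached 1 FPKM in all 4 libraries. Among them were srp and ush (blood-cell transcription factors) and Pvr (the PDGF/VEGF receptor). The 14 summed to 512 and 523 FPKM in mip40 RNAi, against 518 and 539 FPKM in GFP cells. This sum leaves out the marker SPARC, listed as BM-40-SPARC, which was lower in mip40 RNAi. It had 876 and 861 FPKM in mip40 RNAi, against 1177 and 1248 FPKM in GFP cells. Of 8 neuronal markers, elav, fne, Syx1A and para reached 1 FPKM in all 4 libraries, and the sum was 188 and 173 FPKM in mip40 RNAi, against 146 and 196 FPKM in GFP cells. No muscle, fat body or gut marker reached 1 FPKM in all 4 libraries, and the sums stayed at or under 1.58 FPKM.

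Loss of mip40 moved a minority of genes, and most of them by little. Of the 7835 tested genes, 446 (5.69%) rose and 275 (3.51%) fell, 721 (9.2%) in all (limma on log2(FPKM + 1), Benjamini-Hochberg adjusted p of 0.05). The median log2 change of all tested genes was 0.01, 5% of genes lay under -0.41 and 5% above 0.53, and 5770 genes (73.6%) changed by less than 0.25 in either direction. Among genes that rose, the median change was 0.62 and 74.4% changed by less than 1, while 37 genes passed 2. Falls were smaller, with a median size of 0.48 and 91.3% under 1. In FPKM, 147 of the genes that rose were at least doubled and 37 of those that fell were at least halved. The log2(FPKM + 1) scale understates the change of low genes.

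**Figure D1:**
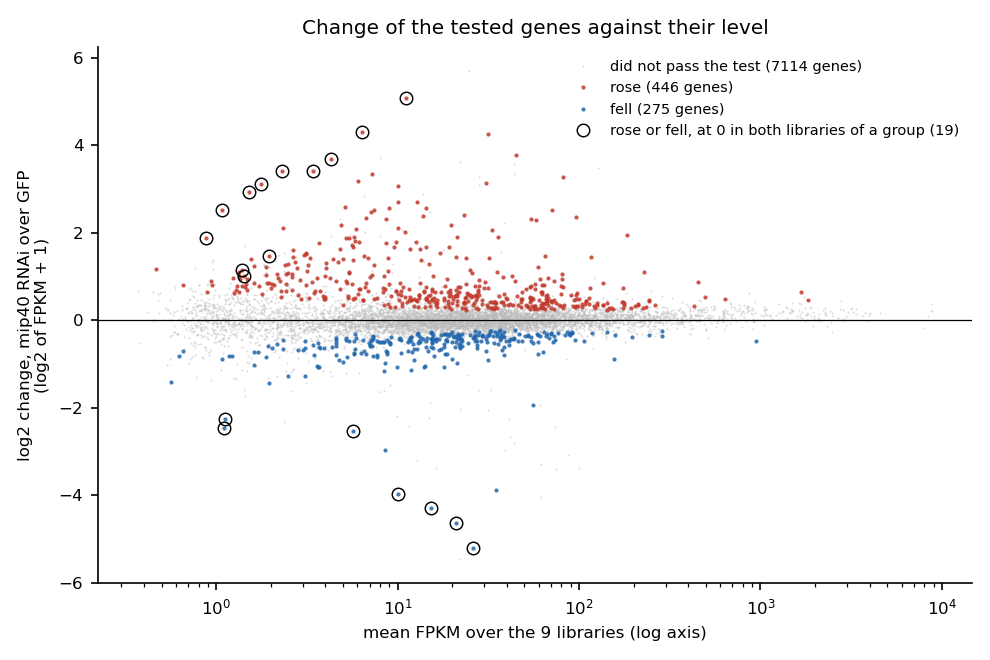
Change of each tested gene (log2 of FPKM + 1, mip40 RNAi over GFP, vertical axis) against its mean FPKM over the 9 libraries (horizontal log axis). Red points are the 446 genes that rose, blue points the 275 that fell and grey points the genes that did not pass the test, while circles mark the 19 of these risen or fallen genes that were listed at 0 in both libraries of mip40 RNAi or of GFP. Rises reach further from 0 than falls once the circled genes are set aside, and few of the most abundant genes fell.

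The genes that rose had a lower median level in control cells than those that fell. It was 19.8 FPKM in mip40 RNAi and 11.6 FPKM in GFP cells, and that of the genes that fell was 15.1 FPKM in mip40 RNAi and 22.3 FPKM in GFP cells. Of the genes that rose, 351 stood at 1 FPKM or more in both GFP libraries, so these were already expressed in control cells. Another 87 lay under 1 FPKM in both GFP libraries. These 87 entered the test only through RNAi libraries and had to differ from the control, so their number is given as a description. Of the genes that fell, 0 lay under 1 FPKM in both GFP libraries. The calls also use the same GFP values, so the lower control median of the rises is a description too. Among genes with a mean level over 100 FPKM, 44 of 1047 rose (4.20%) and 10 fell (0.955%), with a median change of 0.07. Between 10 and 20 FPKM, 79 of 1433 rose (5.51%) and 69 fell (4.82%). By chromosome, the X held the highest share of rises, 109 of 1349 tested genes (8.08%, with 45 falls), against 4.78% to 5.48% on the arms of chromosomes 2 and 3. The small chromosome 4 held 1 rise and 4 falls among 64 tested genes.

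The balance of rises and falls depended on the scaling of the libraries. When each library was scaled to the same sum over annotated genes, 320 genes rose and 464 fell, so that rises made up 40.8% of the calls, against 61.9% with the deposited values. Rises stayed in the majority with median-ratio scaling (463 rises and 329 falls) and with quantile normalization (385 and 300). The 721 calls numbered between 301 (without GFP replicate 2) and 719 (without the E2F2 library) when 1 of the 9 libraries was left out. In every such fit 168 rises and 52 falls passed, and unless stated otherwise the genes given below with values as risen or fallen are among these. Counts over lists are from the fit of all 9 libraries.

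Some of the largest rises were of genes nearly silent in control cells. Sas, which encodes a sialic acid synthase, had 33.0 and 31.5 FPKM in mip40 RNAi, against 1.09 and 0.462 FPKM in GFP cells (log2 change 4.25 ± 0.15, limma adjusted p = 1.8e-05). swa (swallow), whose product anchors bicoid RNA in the egg, had 7.98 and 9.51 FPKM in mip40 RNAi, against 0.0974 and 0.0586 FPKM in GFP cells (3.17 ± 0.11, limma adjusted p = 1.7e-05). In either case the libraries of the groups were separated by more than an order of magnitude. CG34355, an uncharacterised gene, had 11 and 10.6 FPKM in mip40 RNAi, against 0.180 and 0.155 FPKM in GFP cells (3.33 ± 0.09, limma adjusted p = 6.4e-06). swa and CG34355 lay under 1 FPKM in both GFP libraries.

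The large rises of CG14516, CG15484 and CG30383 started from more than 1 FPKM in both GFP libraries. CG14516 had 39.8 and 36.1 FPKM in mip40 RNAi, against 3.63 and 3.27 FPKM in GFP cells (log2 change 3.13 ± 0.08, limma adjusted p = 6.4e-06). CG15484 had 103 and 83.6 FPKM in mip40 RNAi, against 8.26 and 9.03 FPKM in GFP cells (3.28 ± 0.10, limma adjusted p = 1.3e-05), and CG30383 had 49.4 and 52.9 FPKM in mip40 RNAi, against 4.10 and 1.86 FPKM in GFP cells (3.77 ± 0.24, limma adjusted p = 0.00019). CG15484 and CG30383 are uncharacterised. The 5 genes that follow were picked for their known roles after their values were seen. Of them, fs(1)N and crb lay under 1 FPKM in both GFP libraries and were tested only through RNAi libraries. Arpc3B, a subunit of the actin-nucleating Arp2/3 complex, had 85.8 and 77.0 FPKM in mip40 RNAi, against 15.4 and 11.6 FPKM in GFP cells (2.52 ± 0.14, limma adjusted p = 0.00011). fs(1)N, needed in the ovary for the eggshell and for terminal patterning, had 9.30 and 8.55 FPKM in mip40 RNAi, against 0.704 and 0.639 FPKM in GFP cells (2.57 ± 0.08, limma adjusted p = 1.3e-05). crb (crumbs), a determinant of apical polarity in epithelia, had 4.86 and 4.38 FPKM in mip40 RNAi, against 0.704 and 0.583 FPKM in GFP cells (1.77 ± 0.11, limma adjusted p = 0.00017). coil, which encodes the Cajal body protein coilin, had 54.1 and 50.2 FPKM in mip40 RNAi, against 25.2 and 26 FPKM in GFP cells (1.00 ± 0.06, limma adjusted p = 0.00019). Cap-D3, a condensin II subunit, had 11 and 10.4 FPKM in mip40 RNAi, against 5.64 and 5.35 FPKM in GFP cells (0.85 ± 0.07, limma adjusted p = 0.00062).

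**Figure D2:**
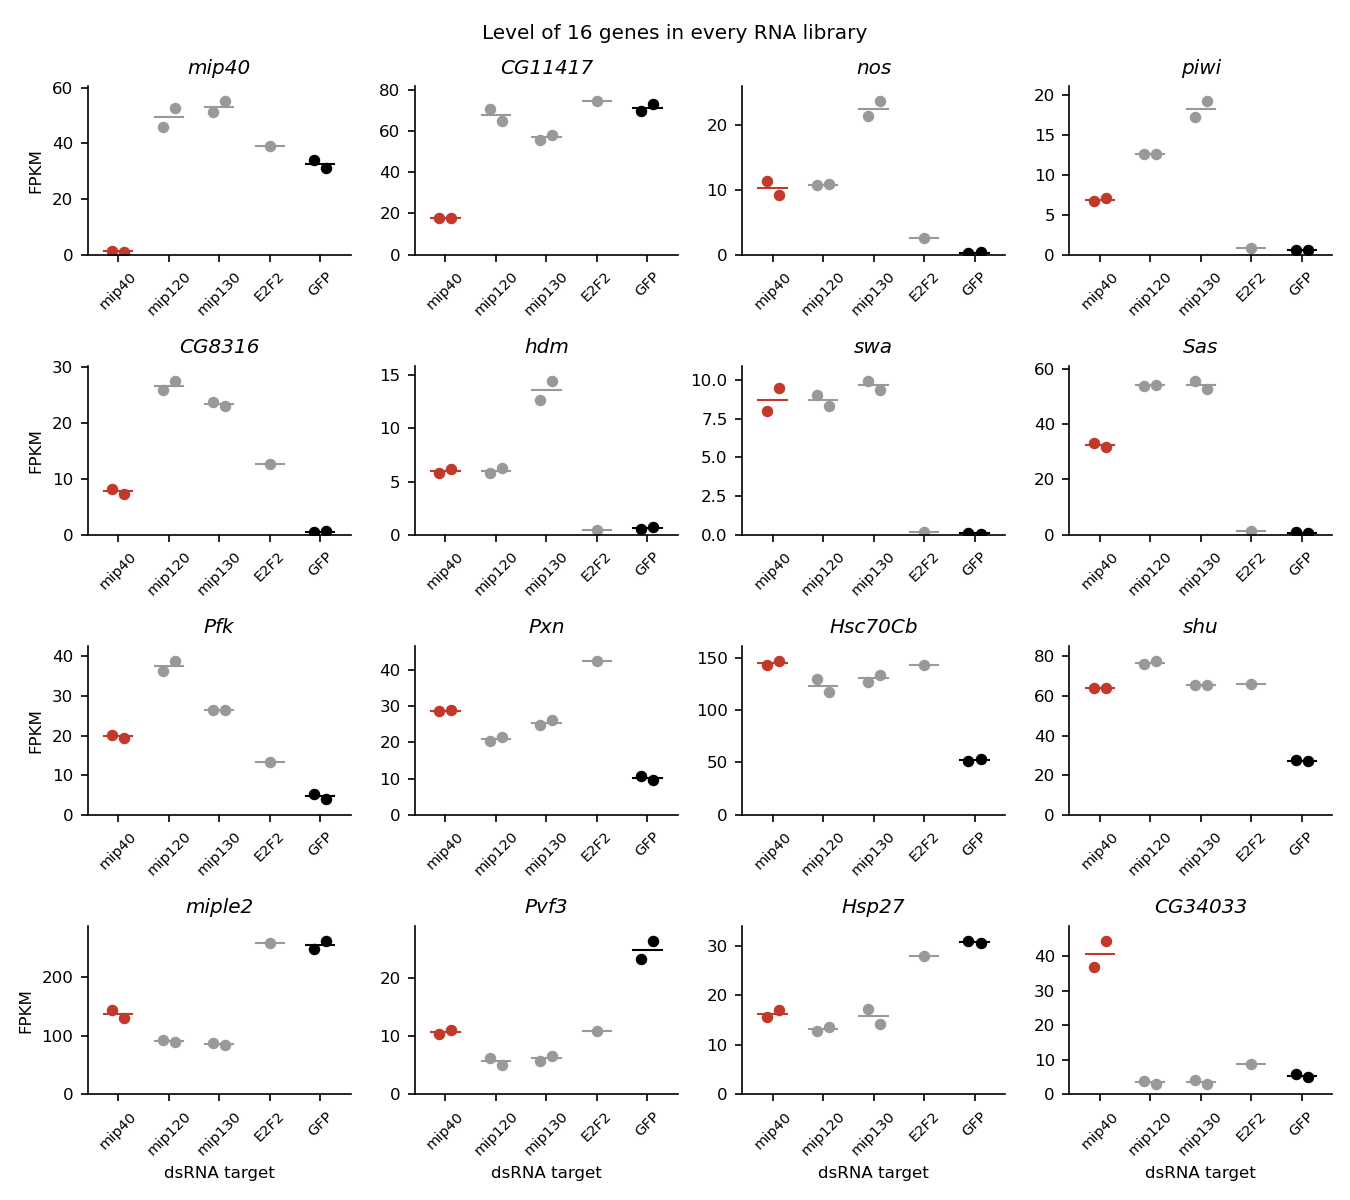
FPKM of 16 genes in every RNA library (points) with the group mean (line), for cells given dsRNA against mip40, mip120, mip130, E2F2 (1 library) and GFP from left to right, on linear axes that start at 0. mip40 and CG11417 are low in the mip40 RNAi libraries alone, CG34033 is high in them, and piwi, CG8316 and Pfk stand between the GFP libraries and the mip120 and mip130 RNAi libraries.

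Several genes were listed at 0 in one group and expressed in the other. A 0 may stand for an estimate that failed, so these are given as values. Gprk2, a G protein-coupled receptor kinase gene, had 33.1 and 32.8 FPKM in mip40 RNAi and was listed at 0 in both GFP libraries. Its neighbours on 3R did the same: Gcn2, a kinase that senses lack of amino acids, had 11.9 and 11.9 FPKM, and CG11337 had 8.64 and 10.9 FPKM, each listed at 0 in both GFP libraries. On the X, CG3726 had 18.3 and 19.1 FPKM and rut, the rutabaga adenylyl cyclase gene, had 2.78 and 2.63 FPKM in mip40 RNAi, against 0 in both GFP libraries. All 5 were also listed at 0 in the mip120 and mip130 RNAi libraries, while the E2F2 RNAi library had 33.9 FPKM of Gprk2, 14.8 of Gcn2, 11.1 of CG11337, 20.1 of CG3726 and 2.53 of rut. In all, 13 genes were at 1 FPKM or more in both mip40 RNAi libraries and listed at 0 in both GFP libraries, and 10 genes were the other way round. In each of these sets 6 were small RNA genes. mir-967, for example, was listed at 0 in both mip40 RNAi libraries and had 42.5 and 29.9 FPKM in the GFP libraries. CG42259 was likewise listed at 0 in mip40 RNAi and had 6.63 and 3.43 FPKM in GFP cells.

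Of 42 tested genes of the germline and piRNA list, 15 rose and 1 fell in mip40 RNAi, beside 5.69% and 3.51% of all tested genes. The median log2 change was 0.20, beside 0.01 over all tested genes. Of the 15, nos, piwi, zpg and SoYb lay under 1 FPKM in both GFP libraries and were tested only because RNAi libraries were higher. With each library left out in turn, 10 of the rises passed in every fit. nos (nanos), a translational repressor of germ cells, had 11.3 and 9.22 FPKM in mip40 RNAi, against 0.334 and 0.357 FPKM in GFP cells (3.06 ± 0.11, limma adjusted p = 1.7e-05). The germ-cell differentiation factor bam had 7.48 and 6.56 FPKM in mip40 RNAi, against 1.43 and 1.43 FPKM in GFP cells (1.72 ± 0.09, limma adjusted p = 0.00011). zpg, a gap junction gene of the germline, had 1.91 and 2.82 FPKM in mip40 RNAi, against 0.421 and 0.343 FPKM in GFP cells (1.27 ± 0.16, limma adjusted p = 0.0053). Both RNAi libraries lay above both control libraries for each of the 3. vas, the germ-cell RNA helicase gene often used as a marker of the lineage, did not pass the test, with 0.260 and 0.441 FPKM in mip40 RNAi, against 0.114 and 0.0261 FPKM in GFP cells (0.33). Nor did osk (oskar), the organiser of germ plasm, with 3.21 and 2.55 FPKM in mip40 RNAi, against 2.07 and 2.05 FPKM in GFP cells (0.34). Over the 5 germline markers, 4 rose and the sum was 27.6 and 26.2 FPKM in mip40 RNAi, against 2.88 and 2.76 FPKM in GFP cells. In RNA from whole cultures, a larger share of cells with a gene on and more RNA per cell cannot be told apart.

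In the piRNA pathway, which silences transposons with small RNAs, members of the same role differed. Of the Argonaute proteins that bind piRNAs, piwi had 6.66 and 7.13 FPKM in mip40 RNAi, against 0.585 and 0.612 FPKM in GFP cells (log2 change 2.30 ± 0.09, limma adjusted p = 2.2e-05). The other Argonautes were already well expressed in the control and did not pass the test. aub had 35.3 and 38.2 FPKM in mip40 RNAi, against 46.2 and 40.6 FPKM in GFP cells (-0.23), and AGO3 had 35.9 and 33.4 FPKM in mip40 RNAi, against 27.7 and 24.0 FPKM in GFP cells (0.41). Some cofactors passed the test. shu (shutdown), a co-chaperone that helps load piRNAs, had 64.3 and 63.8 FPKM in mip40 RNAi, against 27.4 and 27.0 FPKM in GFP cells (1.21 ± 0.05, limma adjusted p = 3.6e-05). spn-E, a helicase with a Tudor domain, had 17 and 17.1 FPKM in mip40 RNAi, against 8.54 and 8.12 FPKM in GFP cells (0.95 ± 0.06, limma adjusted p = 0.00023). The Tudor-domain genes SoYb, vret and fs(1)Yb rose by 1.19, 0.69 and 0.59, and cuff, a partner of Rhino at piRNA clusters, by 0.68. rhi (Rhino) itself did not pass, with 11.5 and 10.1 FPKM in mip40 RNAi, against 15.0 and 16.1 FPKM in GFP cells (-0.49, limma adjusted p = 0.056). armi, a helicase of piRNA production, stood at 60.8 and 60.7 FPKM in mip40 RNAi, against 58.3 and 57.8 FPKM in GFP cells (0.06). The 1 member that fell, squ (squash), had 25.9 and 23.0 FPKM in mip40 RNAi, against 35.9 and 37.0 FPKM in GFP cells (-0.56 ± 0.08, limma adjusted p = 0.0069, and 0.0501 once GFP replicate 2 was left out).

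Of 26 tested genes of meiosis, 9 rose and none fell, beside 5.69% and 3.51% of all tested genes, with a median of 0.27. Of the 9, 6 passed with any library left out, and CG8316, hdm, cona and c(2)M were under 1 FPKM in both GFP libraries and were tested only through RNAi libraries. The synaptonemal complex pairs homologous chromosomes in meiotic cells. Of its parts, CG8316 (corolla) had 8.22 and 7.26 FPKM in mip40 RNAi, against 0.397 and 0.576 FPKM in GFP cells (log2 change 2.56 ± 0.09, limma adjusted p = 1.8e-05). c(3)G, the transverse filament, had 18.1 and 15.2 FPKM in mip40 RNAi, against 7.54 and 8.01 FPKM in GFP cells (1.00 ± 0.10, limma adjusted p = 0.0014). The complex genes cona and c(2)M rose by 1.53 and 1.44 from levels under 1 FPKM in the control. hdm (hold'em), needed for meiotic crossovers, had 5.78 and 6.14 FPKM in mip40 RNAi, against 0.546 and 0.762 FPKM in GFP cells (2.08 ± 0.11, limma adjusted p = 0.0001). sub, a kinesin of the acentrosomal meiotic spindle, had 23.9 and 24.1 FPKM in mip40 RNAi, against 14.2 and 13.3 FPKM in GFP cells (0.77 ± 0.06, limma adjusted p = 0.00072). Of 46 testis genes in the table only 14 were tested, and 6 of them rose and none fell (median 0.44), with 3 passing whichever library was left out. The testis form of a proteasome ATPase, Rpt3R, had 6.74 and 6.83 FPKM in mip40 RNAi, against 1.45 and 1.42 FPKM in GFP cells (1.68 ± 0.14, limma adjusted p = 0.00071). topi, a gene of the meiotic arrest class in spermatocytes, had 2.61 and 2.72 FPKM in mip40 RNAi, against 0.970 and 0.717 FPKM in GFP cells (0.99 ± 0.11, limma adjusted p = 0.0034). In the germline, meiosis and testis lists, 6, 5 and 5 tested genes lay under 1 FPKM in both GFP libraries and entered through RNAi libraries.

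Of 56 DNA replication genes, 7 rose and none fell, beside 5.69% and 3.51% of all tested genes, and the median was 0.15. With libraries scaled to equal annotated sums 3 rose and the median was 0.07, and 2 passed in every fit that left out a library. Those were CG15220, the small subunit of replication protein A, with 85.8 and 91.7 FPKM in mip40 RNAi, against 58.6 and 57.5 FPKM in GFP cells (log2 change 0.60 ± 0.07, limma adjusted p = 0.0028), and DNA-ligI (DNA ligase), with 22.5 and 23.1 FPKM in mip40 RNAi, against 16.9 and 16.4 FPKM in GFP cells (0.44 ± 0.05, limma adjusted p = 0.0052). Of 41 DNA repair genes, 6 rose and none fell (median 0.20, or 0.11 with equal annotated sums), and 2 passed with any library left out. mus205, the catalytic subunit of the translesion polymerase zeta, had 18.5 and 18.2 FPKM in mip40 RNAi, against 11.5 and 11.3 FPKM in GFP cells (0.64 ± 0.06, limma adjusted p = 0.00094). Fancd2, of the Fanconi pathway for crosslink repair, had 9.25 and 10.1 FPKM in mip40 RNAi, against 5.79 and 5.52 FPKM in GFP cells (0.68 ± 0.07, limma adjusted p = 0.002). Its partner FANCI rose by 0.56 (limma adjusted p = 0.0077, and 0.0528 once GFP replicate 1 was left out).

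Genes of mitosis went both ways, and over all tested genes 5.69% rose and 3.51% fell. Of 61 genes of G2 and mitosis, 11 rose and 6 fell, with a median of 0.02, and 4 rises and 1 fall passed with any library left out. With equal annotated sums 8 rose and 10 fell, and the median was -0.06. cid, the centromeric histone, had 22.8 and 21.2 FPKM in mip40 RNAi, against 11.8 and 13.2 FPKM in GFP cells (log2 change 0.77 ± 0.10, limma adjusted p = 0.005). thr, a subunit of separase, had 15.6 and 15.3 FPKM in mip40 RNAi, against 9.38 and 8.71 FPKM in GFP cells (0.71 ± 0.07, limma adjusted p = 0.0014), and asp, a spindle pole protein, had 21.8 and 21.7 FPKM in mip40 RNAi, against 15.6 and 15.6 FPKM in GFP cells (0.46 ± 0.05, limma adjusted p = 0.0039). In the other direction, pav (pavarotti), the kinesin of the cytokinetic midzone, had 32.7 and 31.1 FPKM in mip40 RNAi, against 48.8 and 44.0 FPKM in GFP cells (-0.52 ± 0.07, limma adjusted p = 0.0076). CycB, the mitotic cyclin B, had 68.4 and 72.3 FPKM in mip40 RNAi, against 97.2 and 89.3 FPKM in GFP cells (-0.40 ± 0.07, limma adjusted p = 0.021, and up to 0.104 with a library left out, without GFP replicate 1). CycB was also the 1 gene of 15 that passed among E2F factors, cyclins and RB regulators, whose median was 0.08, or -0.01 with equal annotated sums. Of 21 kinesins, 3 rose and 3 fell (median -0.06).

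Of 83 tested cytosolic ribosomal protein genes, 79 had a change above 0 and the median was 0.18, but only RpL18, RpS19b and RpL4 rose, and none of the 3 passed in every fit that left out a library. RpL18 had 408 and 485 FPKM in mip40 RNAi, against 260 and 222 FPKM in GFP cells (log2 change 0.88 ± 0.14, limma adjusted p = 0.013). Its adjusted p was 0.0753 without GFP replicate 2, that of RpS19b 0.0731 without GFP replicate 2 and that of RpL4 0.147 without mip40 replicate 1 (limma, the highest over the libraries left out). The ribosomal median was 0.05 with quantile normalization and 0.09 with equal annotated sums. Over all tested genes 5.69% rose and 3.51% fell, and the median was 0.01. Among tested genes with a mean level over 100 FPKM the median was 0.07. The share with a change above 0 was not counted over all tested genes. Mitochondrial ribosomal protein genes had 1 rise among 73 and a median of 0.05 (-0.03 with equal annotated sums). Of 29 translation factor genes, 4 rose and none fell (median 0.15). With quantile normalization or equal annotated sums 1 rose, with medians of 0.06 and 0.07. CG8636, eIF-1A and eIF3-S8 lost the call with a library left out (highest limma adjusted p 0.139, 0.127 and 0.158). Thor, the fly 4E-BP that holds back cap-dependent translation, had 72.4 and 59.6 FPKM in mip40 RNAi, against 38.2 and 32.2 FPKM in GFP cells (0.89 ± 0.11, limma adjusted p = 0.0058).

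Among 16 genes of glycolysis and fermentation, 3 rose and none fell (median 0.19), beside 5.69% and 3.51% of all tested genes. With equal annotated sums 1 rose (median 0.11). Pfk, the phosphofructokinase that commits sugar to glycolysis, had 20.2 and 19.4 FPKM in mip40 RNAi, against 5.12 and 4.05 FPKM in GFP cells (log2 change 1.90 ± 0.10, limma adjusted p = 8.8e-05). Hex-A and Tpi rose by 0.46 and 0.33, with adjusted p of up to 0.173 without GFP replicate 1 and 0.138 without mip40 replicate 1 (limma). No gene passed among 29 of oxidative phosphorylation (median 0.10) or 31 of the proteasome (median 0.08, or -0.01 with quantile normalization or equal annotated sums), where changes ran from -0.21 to 0.25. Of 20 V-ATPase genes 1 rose, Vha68-1, a subunit of the catalytic head of this proton pump, with 11.5 and 11.5 FPKM in mip40 RNAi, against 2.70 and 2.59 FPKM in GFP cells (1.78 ± 0.09, limma adjusted p = 0.0001). Of 24 genes of cytochrome P450 enzymes and detoxification 2 rose, and GstD9, a glutathione transferase, had 70.3 and 73.8 FPKM in mip40 RNAi, against 37.7 and 35.8 FPKM in GFP cells (0.95 ± 0.07, limma adjusted p = 0.0004).

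**Figure D3:**
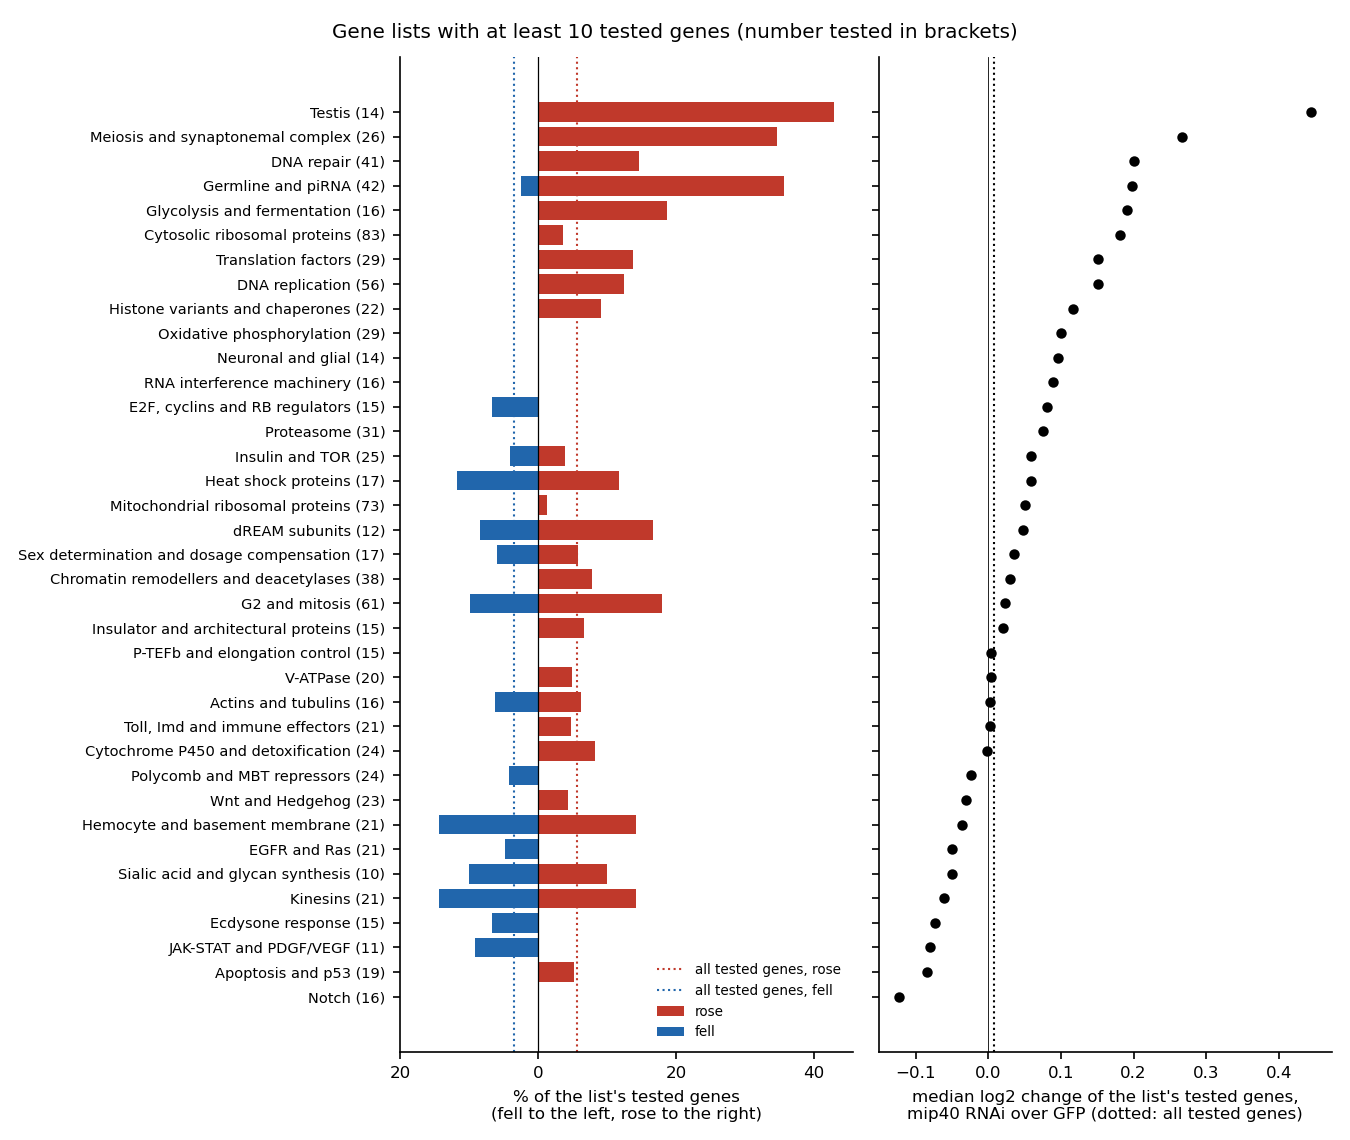
For each list with at least 10 tested genes, the share of tested genes that rose (red, to the right) or fell (blue, to the left) in mip40 RNAi and the median log2 change, mip40 RNAi over GFP. Dotted lines give the shares and the median over all 7835 tested genes. The testis, meiosis and germline lists have the largest shares of rises, 6 of 14, 9 of 26 and 15 of 42 genes, though they also hold genes that were tested only because they were high in RNAi libraries.

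The blood-cell character of S2R+ shifted in single genes. Of 21 genes of hemocytes and basement membrane, 3 rose and 3 fell (median -0.04), beside 5.69% and 3.51% of all tested genes. Pxn (peroxidasin), an enzyme of the basement membrane made by hemocytes, had 28.7 and 28.9 FPKM in mip40 RNAi, against 10.6 and 9.58 FPKM in GFP cells (log2 change 1.43 ± 0.07, limma adjusted p = 7.1e-05). drpr (draper), the receptor for engulfing dead cells, had 8.66 and 8.42 FPKM in mip40 RNAi, against 4.08 and 3.32 FPKM in GFP cells (1.03 ± 0.10, limma adjusted p = 0.0017). Pvf3, a PDGF/VEGF-like ligand, had 10.4 and 11.1 FPKM in mip40 RNAi, against 23.37 and 26.39 FPKM in GFP cells (-1.14 ± 0.12, limma adjusted p = 0.0019), but 0.376 when known transcripts alone were summed. BM-40-SPARC, an abundant collagen-binding protein, had 876 and 861 FPKM in mip40 RNAi, against 1177 and 1248 FPKM in GFP cells (-0.48 ± 0.09, limma adjusted p = 0.021, and up to 0.0959 with a library left out, without GFP replicate 2).

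Of 17 heat shock proteins, 2 rose and 2 fell, beside 5.69% and 3.51% of all tested genes. Hsc70Cb, a relative of Hsp110 that assists Hsp70, had 143 and 147 FPKM in mip40 RNAi, against 51.2 and 53.5 FPKM in GFP cells (log2 change 1.46 ± 0.07, limma adjusted p = 5.1e-05). The small heat shock protein gene Hsp27 had 15.6 and 16.9 FPKM in mip40 RNAi, against 30.9 and 30.5 FPKM in GFP cells (-0.88 ± 0.09, limma adjusted p = 0.0024). The inducible gene Hsp68 had 7.30 and 6.55 FPKM in mip40 RNAi, against 16.3 and 14.8 FPKM in GFP cells (-1.06 ± 0.17, limma adjusted p = 0.013, and up to 0.0793 with a library left out, without GFP replicate 1). So the chaperone genes that passed did not move together.

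Calls in the signalling and chromatin lists are given beside 5.69% risen and 3.51% fallen of all tested genes. No list was tested as a set. Of 21 genes of the Toll and Imd pathways and immune effectors, dl (dorsal), an NF-kappaB factor, was the 1 that passed, with 32.7 and 31.1 FPKM in mip40 RNAi, against 17.2 and 15.8 FPKM in GFP cells (log2 change 0.91 ± 0.07, limma adjusted p = 0.00041). Of 24 Polycomb and MBT repressors, 1 fell, escl, a relative of the H3K27 methylation cofactor esc, with 4.83 and 5.85 FPKM in mip40 RNAi, against 9.40 and 9.90 FPKM in GFP cells (-0.75 ± 0.11, limma adjusted p = 0.0081, and 0.0579 once GFP replicate 2 was left out). Of 38 chromatin remodellers and deacetylases, dom, kis and XNP rose by 0.47, 0.34 and 0.33, with limma adjusted p of up to 0.0614 without mip40 replicate 1, 0.188 without GFP replicate 1 and 0.188 without GFP replicate 1. The rest of the calls in this paragraph did not pass in every fit that left out a library, save for Pvf3, Thor, tsr, Sas, cid and shu. A single gene passed among each of 15 insulator proteins (BEAF-32, higher), 19 genes of apoptosis and p53 (p53, higher), 15 of the ecdysone response (Hr78, lower), 21 of EGFR and Ras (aos, lower), 11 of JAK-STAT and PDGF/VEGF (Pvf3, lower) and 23 of Wnt and Hedgehog (boi, higher). With a library left out, limma adjusted p reached 0.141 for BEAF-32 (without mip40 replicate 1), 0.156 for p53 (without mip40 replicate 1), 0.155 for Hr78 (without GFP replicate 1), 0.107 for aos (without mip40 replicate 1) and 0.0796 for boi (without GFP replicate 2). Insulin and TOR genes, actins and tubulins, genes of sialic acid and glycan synthesis and genes of sex determination and dosage compensation had 1 rise and 1 fall each, among 25, 16, 10 and 17 tested genes. Of these, limma adjusted p reached 0.139 for Sesn (without GFP replicate 2), 0.126 for betaTub97EF (without mip40 replicate 1), 0.146 for Hexo1 (without GFP replicate 1), 0.0838 for mof (without mip40 replicate 1) and 0.0885 for tra2 (without GFP replicate 1). Of 22 histone variants and chaperones cid and CG3509 rose, the second with an adjusted p of 0.151 without GFP replicate 1 (limma), and of 9 FK506-binding proteins and isomerases 1 did, shu. None passed among 16 Notch, 16 RNA interference, 15 P-TEFb and elongation, 14 neuronal and glial or 7 muscle genes, 2 ovarian follicle genes and 1 gene of fat body and gut. Of the 721 genes that passed, 616 were in none of the 41 lists.

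Among genes that fell, CG11417 stood apart. This gene had 17.9 and 17.7 FPKM in mip40 RNAi, against 69.4 and 72.9 FPKM in GFP cells (log2 change -1.94 ± 0.06, limma adjusted p = 1.3e-05). It had 70.4 and 64.8 FPKM in mip120 RNAi, 55.7 and 57.9 in mip130 RNAi and 74.3 in E2F2 RNAi, so the 2 low libraries were those of mip40 RNAi. Against the mean of mip120 and mip130 RNAi its log2 difference was -1.74 ± 0.06 (limma adjusted p = 1.1e-05). CG11417 starts at 1248076 on the X. Tsp2A, a tetraspanin gene of septate junctions at 1239133 that was picked after its values were seen, had 10.2 and 9.64 FPKM in mip40 RNAi, against 20.9 and 22.9 FPKM in GFP cells (-1.07 ± 0.08, limma adjusted p = 0.00059). Whether the mip40 dsRNA matches either gene was not tested.

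Both fly genes of the midkine and pleiotrophin family of heparin-binding growth factors, neighbours on 3L, fell. miple2 had 144 and 130 FPKM in mip40 RNAi, against 248 and 261 FPKM in GFP cells (log2 change -0.89 ± 0.07, limma adjusted p = 0.00062). miple had 0.888 and 1.33 FPKM in mip40 RNAi, against 4.77 and 4.61 FPKM in GFP cells (-1.44 ± 0.19, limma adjusted p = 0.0062). Other falls of known role were picked after their values were seen. EfTuM, a mitochondrial elongation factor, had 52.4 and 52.8 FPKM in mip40 RNAi, against 92.2 and 83.4 FPKM in GFP cells (-0.73 ± 0.09, limma adjusted p = 0.0045). Spn27A, a serpin that restrains the Toll pathway, had 12.8 and 14.3 FPKM in mip40 RNAi, against 24.2 and 24.8 FPKM in GFP cells (-0.81 ± 0.08, limma adjusted p = 0.0019), and sals, a regulator of sarcomere length, had 2.70 and 2.50 FPKM in mip40 RNAi, against 6.29 and 6.62 FPKM in GFP cells (-1.05 ± 0.10, limma adjusted p = 0.0014).

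The most abundant genes that rose were Clic, a relative of chloride channels, and tsr (twinstar), the actin-severing cofilin. tsr had 1743 and 1801 FPKM in mip40 RNAi, against 1230 and 1059 FPKM in GFP cells (log2 change 0.63 ± 0.10, limma adjusted p = 0.01, and 0.0697 with quantile normalization). Clic had 1917 and 1769 FPKM in mip40 RNAi, against 1404 and 1256 FPKM in GFP cells (0.47 ± 0.10, limma adjusted p = 0.039, and up to 0.155 with a library left out, without mip40 replicate 1). Near the median of the rises stood nmdyn-D7, of the nucleoside diphosphate kinase family, with 23.4 and 23.0 FPKM in mip40 RNAi, against 14.4 and 14.8 FPKM in GFP cells (0.63 ± 0.06, limma adjusted p = 0.0011, and 0.0582 for known transcripts alone). The 5 other rises nearest the median, CG3630, RpS19b, CG2930, CG42494 and nahoda, lost the call without GFP replicate 2 (limma adjusted p from 0.0565 to 0.150). Near the median of the falls stood Tre1, a receptor that guides germ cell migration, with 40.3 and 41.9 FPKM in mip40 RNAi, against 59.6 and 55.8 FPKM in GFP cells (-0.48 ± 0.06, limma adjusted p = 0.0051). The 5 other falls nearest the median, Plc21C, rost, sip2, CG1600 and BM-40-SPARC, lost the call with some library left out (highest limma adjusted p from 0.0717 to 0.0981). Both nmdyn-D7 and Tre1 changed by less than a factor of 2 in FPKM, with replicates close together.

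Among the other subunits of dREAM, 2 of the MuvB core rose. Beside the rises of mip130 (50.4 and 47.1 FPKM in mip40 RNAi, against 27.7 and 29.8 FPKM in GFP cells) and of mip120 (76.2 and 87.0 FPKM in mip40 RNAi, against 52.5 and 45.7 FPKM in GFP cells, limma adjusted p = 0.0087, and 0.0543 without GFP replicate 2), no other subunit gene passed. Closest were Rbf2, a retinoblastoma-family gene, with 6.77 and 7.41 FPKM in mip40 RNAi, against 5.69 and 4.79 FPKM in GFP cells (log2 change 0.38 ± 0.11, limma adjusted p = 0.088), and lin-52, with 14.2 and 14.8 FPKM in mip40 RNAi, against 11.3 and 11.1 FPKM in GFP cells (0.34 ± 0.11, limma adjusted p = 0.097). The subunit genes E2f2, Dp and Myb changed by -0.06, 0.03 and -0.04.

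mip40 RNAi was then set against the RNAi of the MuvB partners mip120 and mip130. The difference from their mean was tested without the GFP libraries in the contrast, though the mip40 libraries are shared with the comparison above. It was positive for 1249 of 7835 genes (15.9%) and negative for 1079 (13.8%). This is a contrast of 2 against 4 libraries whose counts cannot be set against those of the 2 against 2 comparison with GFP. With libraries scaled to equal annotated sums 773 were higher and 1410 lower, and with median-ratio scaling 1125 and 1238, so the scaling turned which side had more genes. Higher and lower genes numbered 301 and 431 without mip40 replicate 1, 785 and 580 without mip40 replicate 2, 608 and 588 without mip120 replicate 2, 825 and 806 without mip130 replicate 1, and 754 and 677 without mip130 replicate 2. Of the 446 genes that rose against GFP, 170 were lower in mip40 RNAi than in the partner RNAi, 63 were higher and 213 did not pass. Of the 275 that fell, 51 were higher, 45 were lower and 179 did not pass.

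A part of the germline and meiotic genes was among those lower than in the partner RNAi. piwi had 6.66 and 7.13 FPKM in mip40 RNAi, against 12.6 and 12.6 in mip120 RNAi and 17.2 and 19.2 in mip130 RNAi (log2 difference -1.03 ± 0.08, limma adjusted p = 0.00056). CG8316 had 8.22 and 7.26 FPKM in mip40 RNAi, against 25.9 and 27.5 in mip120 RNAi and 23.7 and 23.0 in mip130 RNAi (-1.57 ± 0.08, limma adjusted p = 0.00014). vas, with 0.260 and 0.441 FPKM in mip40 RNAi, had 2.43 and 1.68 in mip120 RNAi and 1.90 and 2.55 in mip130 RNAi (-1.21 ± 0.16, limma adjusted p = 0.0042). Being under 1 FPKM in the mip40 RNAi and GFP libraries, vas was tested only through the other RNAi libraries, so its difference is a description. bam did not differ past the threshold (-0.15 ± 0.08, limma adjusted p = 0.19).

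Some genes responded to the partner RNAi and hardly to mip40 RNAi. Arp53D, a testis actin-related gene, had 0.256 and 0.12 FPKM in mip40 RNAi, 19.9 and 24.0 in mip120 RNAi, 12.5 and 11.8 in mip130 RNAi and 14.4 in E2F2 RNAi, and was listed at 0 in both GFP libraries. Its log2 difference from the partner RNAi was -3.87 ± 0.10 (limma adjusted p = 5.3e-06). Arp53D entered the test only through the mip120, mip130 and E2F2 RNAi libraries, where it was high, so this difference is given as a description. CG13084, picked after its values were seen, had 3.97 and 4.02 FPKM in mip40 RNAi, 39.5 and 37.1 in mip120 RNAi, 28.4 and 27.8 in mip130 RNAi and 3.32 and 3.35 in GFP cells (difference -2.76 ± 0.06, limma adjusted p = 1.8e-06). Hexim, whose product holds the elongation factor P-TEFb inactive, had 16.3 and 16.4 FPKM in mip40 RNAi, 1.32 and 1.24 in mip120 RNAi, 2.52 and 2.25 in mip130 RNAi and 20.7 and 19.9 in GFP cells (difference 2.64 ± 0.07, limma adjusted p = 4.8e-06). Against GFP, Hexim did not pass (log2 change -0.30, limma adjusted p = 0.063). squ, which unlike these had also fallen against GFP in mip40 RNAi, was lowest in the partner RNAi. It had 25.9 and 23.0 FPKM in mip40 RNAi, 11.2 and 11 in mip120 RNAi and 11.4 and 10.5 in mip130 RNAi (difference 1.08 ± 0.07, limma adjusted p = 0.00028).

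The reverse case was CG34033, an uncharacterised gene on 2R. It had 37.0 and 44.4 FPKM in mip40 RNAi, 3.82 and 3.14 in mip120 RNAi, 4.24 and 2.92 in mip130 RNAi, 8.93 in E2F2 RNAi and 5.83 and 4.92 in GFP cells. The mip40 RNAi libraries lay above all the others. Its log2 change was 2.71 ± 0.17 against GFP (limma adjusted p = 0.00019) and its difference from the partner RNAi 3.21 ± 0.15 (limma adjusted p = 8.3e-05).

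At the level of single transcripts fewer tests passed. Of 16806 tested transcripts, 155 rose (0.922%) and 49 fell (0.292%), of which 126 and 38 were known transcripts and 18 and 9 new isoforms. Rises and falls numbered 53 and 16 without mip40 replicate 1, 55 and 5 without GFP replicate 1, and 67 and 16 without GFP replicate 2. How fragments were shared among isoforms was estimated in the authors' processing, so isoform values are less certain than gene sums. Transcripts of a gene moved apart in 108 of 3799 genes with at least 2 tested transcripts (2.84%, limma diffSplice). In the gene test 20 of the 108 had passed and 88 had not, beside 9.2% of all tested genes that passed. The 108 included 90 genes with more than 1 transcript start, a share that was not counted over all 3799 genes. In 57 a transcript had a log2 change over 0.5 while another was under -0.5. However, the test of single transcripts called both a rise and a fall in 0 of the 108 genes. The count was 66 without GFP replicate 1 and 211 without mip40 replicate 2.

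In some genes a start or isoform was exchanged at a near constant total. ver (verrocchio), a telomere-capping protein gene on 3L, had 29.1 and 31.3 FPKM of the known transcript starting at 12517087 in mip40 RNAi, against 22.9 and 18.5 FPKM in GFP cells. Its known transcript starting at 12517527 had 0.0736 and 0.270 FPKM in mip40 RNAi, against 6.62 and 12 FPKM in GFP cells (diffSplice adjusted p = 0.000621 for the gene, limma). The sum over the gene changed by 0.02. CG1407, a palmitoyltransferase gene, had 0.00447 and 0.00435 FPKM of a new isoform starting at 5920429 in mip40 RNAi, against 10.5 and 12.2 FPKM in GFP cells, while the gene's sum changed by -0.13 (diffSplice adjusted p = 0.000285, limma). CG10916 gained a transcript starting at 14060530 that overlaps its known one, with 7.42 and 5.75 FPKM in mip40 RNAi, against 0.222 and 0.130 FPKM in GFP cells. The known transcript, starting at 14061174, had 15.0 and 16.8 FPKM in mip40 RNAi, against 21.0 and 19.6 FPKM in GFP cells (diffSplice adjusted p = 0.000285, limma).

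In genes with a large rise, isoforms shared it unequally. CG14516 rose through its transcript starting at 24964384, with 28.7 and 23.8 FPKM in mip40 RNAi, against 0.664 and 0.666 FPKM in GFP cells. The transcript starting at 24964619 had 10.8 and 11.4 FPKM in mip40 RNAi, against 2.58 and 2.61 FPKM in GFP cells (diffSplice adjusted p = 0.000562, limma). For swa the known transcript starting at 6259742 had 7.50 and 8.84 FPKM in mip40 RNAi, against 0.0385 and 0.0586 FPKM in GFP cells, and the new isoform starting at 6259899 stayed under 1 FPKM in all 4 libraries. Ctr1A, a copper importer gene, did not pass in the gene test, but did as lower with quantile normalization (log2 change -0.27, limma adjusted p = 0.042) and with equal annotated sums (-0.32, 0.0211). It had 2.99 and 2.47 FPKM of a known transcript starting at 6555680 in mip40 RNAi, against 0.0275 and 0 FPKM in GFP cells, beside 3 other tested transcripts that were lower by 0.08 to 0.65 on the log2 scale (diffSplice adjusted p = 0.000247, limma).

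**Figure D4:**
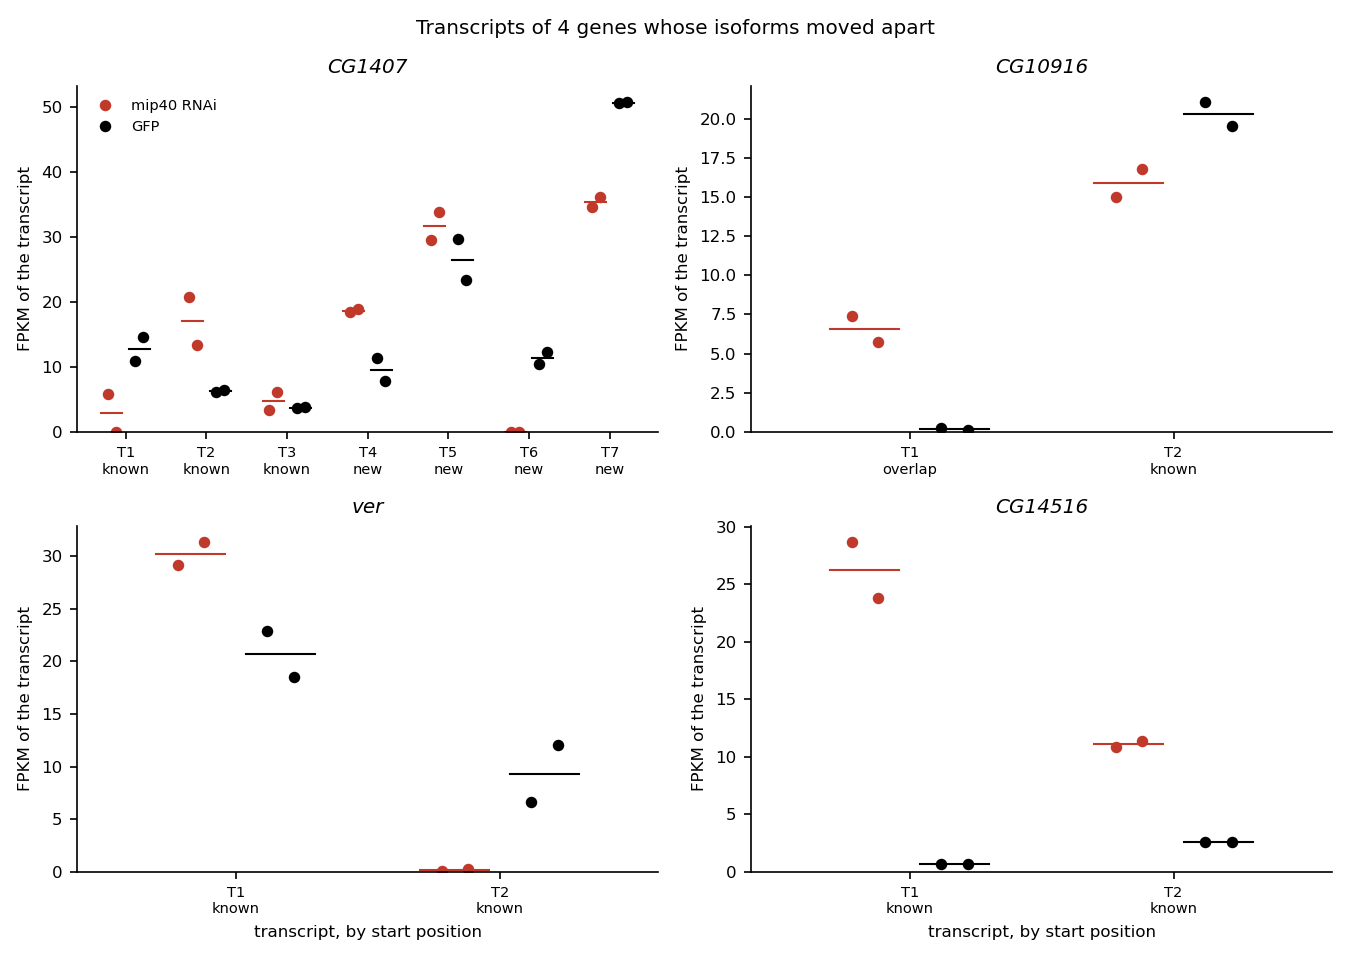
FPKM of each tested transcript of CG1407, CG10916, ver and CG14516 in the mip40 RNAi libraries (red) and the GFP libraries (black), with the group mean as a line. Transcripts are numbered by start position and marked as known, new or overlapping. In CG1407, CG10916 and ver single transcripts appear or vanish in mip40 RNAi while others go on, and in CG14516 both transcripts are higher, the first by more.

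Genes that rose were at times neighbours on the chromosome. Of the genes that rose, 75 (17%) lay next to another that rose among the tested genes, beside 11.1% of all tested genes, and of those that fell 18 (6.67%) lay next to another that fell, beside 6.92%. Runs of 3 adjacent rises, found after the values were seen, included NaCP60E, pain and CG3760 on 2R, over 34144 bp. NaCP60E, a voltage-gated channel gene, had 4.03 and 4.11 FPKM in mip40 RNAi, against 0.855 and 1.07 FPKM in GFP cells (log2 change 1.37 ± 0.09, limma adjusted p = 0.00025). pain (painless), a TRPA channel gene, had 1.15 and 0.860 FPKM in mip40 RNAi, against 0.265 and 0.246 FPKM in GFP cells (0.67 ± 0.12, limma adjusted p = 0.02, and up to 0.0807 without GFP replicate 2). CG3760 had 102 and 96.2 FPKM in mip40 RNAi, against 48.3 and 46.7 FPKM in GFP cells (1.04 ± 0.06, limma adjusted p = 0.00014). The run of Gcn2, CG11337 and Gprk2 on 3R consists of the genes listed at 0 in the control. How far adjacent genes share reads was not tested, and the sources used here do not give the strand setting.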

How the data were processed

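RNA from 9 libraries in 5 groups was analysed, and the digested chromatin was not used here. For each transcript the authors deposited an FPKM value, and the tools in the submitters' processing notes are TopHat2 2.0.12, Bowtie 1.1.1, Cuffnorm and Cufflinks. The sources used here do not give build, annotation, strand setting or tool settings. FPKM hold no counts, so no test of counts was run and absolute depth is unknown.

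FPKM were summed per gene over known transcripts, new isoforms and other overlaps. A gene was tested where 2 or more libraries had an FPKM of 1 or more. The test was that of limma 3.58.1 (R 4.3.3) for log2(FPKM + 1) in a model of the 9 libraries by 5 groups, with a trend on intensity, 4 residual and 2.77 prior degrees of freedom, and p-values adjusted after Benjamini and Hochberg with a threshold of 0.05. Transcripts were tested likewise, and isoform use with diffSplice on genes with at least 2 tested transcripts. The code was tested on simulated data. Each log2 change is given with the model's SE.

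The 41 gene lists, the rules and the question itself were chosen with earlier results of these data known. Named genes are the dREAM subunits and the neighbours of mip40, the 12 largest rises and 12 largest falls, up to 4 called members of each list, the 10 most abundant and the 6 nearest the median per direction, the 6 largest differences per direction from mip120 and mip130 RNAi, and the 8 strongest cases of isoform use. Members of a described list may also be named. Alternatives were other pseudocounts, filters, scalings and transcript classes, no trend, a replicate block, mip40 and GFP libraries alone, and each library left out.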

Additional observations from a re-analysis of the deposited data

Results flagged for a closer look

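Transcripts outside the gene test were higher in mip40 RNAi than in control cells in 8 cases, on the log2(FPKM + 1) scale (limma on all transcripts). They are listed because they lie outside annotated genes or antisense to them, and the gene comparisons do not use them. Among 467 tested transcripts of no annotated gene, 4 rose and 0 fell. Among 119 tested antisense transcripts, 4 rose and 1 fell. Over all 16806 tested transcripts 0.922% rose and 0.292% fell. Of the 4 risen transcripts of no annotated gene, all on the X, that starting at 6581500 had 123 and 116 FPKM in mip40 RNAi, against 64 and 59.0 FPKM in GFP cells (0.94). That starting at 9056161 had 27.1 and 15.3 FPKM in mip40 RNAi, against 3.20 and 3.74 FPKM in GFP cells (2.26). That starting at 1378176 had 4.92 and 4.84 FPKM in mip40 RNAi, against 0 and 0.186 FPKM in GFP cells (2.43), and that starting at 3693095 had 2.11 and 2.27 FPKM in mip40 RNAi, against 0 and 0.146 FPKM in GFP cells (1.57). Those starting at 1378176 and 3693095 were under 1 FPKM in both GFP libraries. They were tested only through RNAi libraries, so their rises are a description.

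Antisense to annotated genes, the transcript over CG6865 had 3.39 and 3.26 FPKM in mip40 RNAi, against 0.131 and 0.0481 FPKM in GFP cells (1.99). That over grh, a gene of an epidermal transcription factor, had 1.90 and 2.72 FPKM in mip40 RNAi, against 0 and 0.145 FPKM in GFP cells (1.62). That over Acam, a calmodulin relative, had 2.76 and 2.44 FPKM in mip40 RNAi, against 0.559 and 0.582 FPKM in GFP cells (1.2). That over Psf2, a replication gene, had 3.58 and 2.39 FPKM in mip40 RNAi and was listed at 0 in both GFP libraries, so that its fitted value of 1.98 depends on the pseudocount and is no bound. All of these antisense transcripts were under 1 FPKM in both GFP libraries. They were tested only through RNAi libraries, so their rises are a description. Without the strand setting, reads of a gene and of its antisense partner cannot be told apart.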

How the results depend on the processing

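No alternative turned the sign of a named gene that passed, but scaling to equal annotated sums turned the balance of calls. Against mip120 and mip130 RNAi, median-ratio scaling turned it too. Rises numbered 164 with mip40 and GFP libraries alone, 289 with the replicate block, and 215 to 446 with a library left out, against 446. The 275 falls became 168 with no filter on low values, 464 with equal annotated sums, 140 for known transcripts alone, 70 with mip40 and GFP libraries alone and 125 with the replicate block. With a library left out they numbered 74 to 273. Rises and falls were 232 and 74 without GFP replicate 1, 215 and 86 without GFP replicate 2, 219 and 110 without mip40 replicate 1, 313 and 126 without mip40 replicate 2, 304 and 138 without mip120 replicate 1 and 300 and 137 without mip120 replicate 2. Against mip120 and mip130 RNAi, the 1249 higher genes became 773 with equal annotated sums and 1125 with median-ratio scaling, and the 1079 lower genes 1410 and 1238. With a library left out they numbered 301 to 1246 and 431 to 1082. Transcripts that rose numbered 73 with the replicate block and 53 to 105 with a mip40 or GFP library left out, against 155. Those that fell numbered 11 with the replicate block and 5 to 39 with such a library left out, against 49. Isoform use passed in 66 to 211 genes on the same terms. A library left alone in its group is assumed to vary like the other groups. Replicate numbers do not pair the samples (r of deviations between -0.135 and 0.0212 over 6 group pairs), so the block is given as a count alone. Of 721 genes, 592 passed with equal annotated sums and 625 with quantile normalization. Chosen after seeing the data, leaving out genes listed at 0 gave 459 rises and 303 falls, leaving out small RNAs 526 and 351, and testing only genes at 1 FPKM or more in both GFP libraries 383 and 311. Depth limits genes near 1 FPKM most, and 676 tested genes had a mean under 2 FPKM.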

Other observations

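The antisense transcript over Ac3, an adenylyl cyclase gene on 2L, was lower in mip40 RNAi, with 15.2 and 15.5 FPKM, against 38 and 31.1 FPKM in GFP cells (log2 change -1.11 ± 0.14, limma adjusted p = 0.0282). It had 6.49 and 5.61 FPKM in mip120 RNAi, 10.3 and 11.9 in mip130 RNAi and 31.0 in E2F2 RNAi.

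Apart from Gprk2 and its like, 8 genes other than small RNAs had at least 5 FPKM in the E2F2 RNAi library and were listed at 0 in all the other libraries, mip40 RNAi and GFP included. Among them, picked after their values were seen, were Lasp, an actin-binding protein gene (151 FPKM), Nipped-A, a subunit of histone acetyltransferase complexes (58.4 FPKM), and mbl (muscleblind), a splicing regulator (42 FPKM).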
